A study of Mus musculus with 20 samples.

Results

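The 4 roxadustat libraries of culture day 21 were set against the 2 roxadustat libraries of day 0, to describe across all genes what 21 days of culture left of the freshly isolated cells. These 6 of the 20 libraries of the series were taken by their treatment and time labels. Roxadustat is an anemia drug that inhibits the prolyl hydroxylases by which cells mark hypoxia-inducible factor (HIF) for destruction. The day 21 cells had been cultured for 21 days in a mesenchymal stem cell medium with fetal calf serum and antibiotics at 20% oxygen, and the series describes this culture as complemented with roxadustat, at a concentration that is not given in the sources used here. The day 0 cells came straight from the digested kidneys of mice that had been injected intraperitoneally with roxadustat (33 mg/kg) for 7 days. All cells had been sorted with magnetic beads for Sca-1, the product of Ly6a, which sits on the surface of many stem and progenitor cells. The labels do not state whether the cultured cells came from injected mice, the strain or age of the mice, or whether libraries of a group are separate animals or cultures, so p-values measure the spread between these libraries only, which may be technical. Control libraries (4 of day 21, and 2 of day 0 from mice without the drug) and the day 7 libraries (4 in each arm) entered the same fit, and the control arm is used where its change is set against that of the roxadustat arm.

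Proximal tubule cells of the kidney take up filtered solutes through a set of transporters and live on fatty acids burned in their mitochondria, while cells of the loop of Henle and the distal nephron have transporters of their own. Injured tubule cells, and tubule cells put on a plastic surface, are known to lose these genes and to take up genes of repair, of the cytoskeleton and of extracellular matrix. HIF, when it is not hydroxylated, raises genes of glucose uptake, glycolysis, lactate export and blood vessel growth.

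The labels call the cells mesenchymal stem cell-like. Ly6a, the gene of the sort marker, had 469, 515, 528 and 511 CPM at day 21, against 668 and 715 CPM at day 0, with a log2 fold change of -0.45 ± 0.07 (SE, adjusted p = 4.95e-06). CPM are counts relative to the library's total, after scaling by the trimmed mean of M values (TMM), and log2 fold changes and adjusted p-values are those of edgeR's quasi-likelihood test over all genes. All 4 day 21 libraries lay below both day 0 libraries, but scaling by library size alone gave Ly6a a change of 0.07 (adjusted p = 0.437). Of 15 mesenchymal stromal cell markers, 11 rose (73.3%, against 38.9% of all genes) and 3 fell (20%, against 38.6%). Those that fell were Ly6a, the growth factor receptor gene Pdgfra and the chemokine gene Cxcl12. In the control arm 10 of these markers rose and 4 fell, so the rise was not particular to the roxadustat arm. At day 0 the defining marker Thy1 had 1.59 and 1.60 CPM, against 9.32, 7.33, 9.74 and 9.74 CPM at day 21, and the 27 proximal tubule genes summed to 645 to 673 CPM at day 21 and to 81911 to 82842 CPM at day 0. The day 0 libraries held abundant tubule transcripts, which the label does not name. In bulk RNA fewer cells of a type and less RNA per cell cannot be told apart. Epo, the gene of erythropoietin, which stromal cells of the kidney make, had 0 counts in all 6 libraries, under a floor of 3 counts or 0.0475 CPM over the day 21 group and 0.106 CPM over the day 0 group.

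The libraries held 12822739, 15166259, 8502011 and 17589332 counts at day 21, against 18705846 and 15974511 counts at day 0. Replicates differed little, with a biological coefficient of variation of 7.20% at day 21 and 8.99% at day 0, and the first principal component of the 6 libraries, which separated the days, held 94.9% of the variance. Mitochondrial genes took 1.22, 0.553, 1.11 and 1.15% of counts at day 21, against 12.2 and 10.6% at day 0. Day 21 replicate 2 stood apart in this share. Without it 14275 genes passed the test described next, and of the genes named in the text only Bhlhe40 and Cd14 then crossed the threshold.

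Most genes changed over 21 days of culture. Of 18731 genes tested, 14522 (77.5%) passed an adjusted p of 0.05, with 7295 higher (38.9%) and 7227 lower (38.6%) at day 21. With so many calls a single call says little, and the share of a gene list that rose or fell is to be read against 38.9% and 38.6%. Libraries of both days did not overlap in 41.3% of all genes, which were higher at day 21, and in 40.2%, which were lower. Lack of overlap in a single gene therefore also says little, here and below. The median log2 fold change of all genes was 0.07. Scaling by library size alone moved this median by 0.52 and gave 10326 higher and 4891 lower genes, so directions of genes that changed by less than about this amount rest on the scaling.

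Among the genes with the highest CPM at day 21, which is not divided by gene length, were those of secreted glycoproteins and of the cytoskeleton. Spp1, the gene of osteopontin, an adhesive glycoprotein that injured tubules secrete (chromosome 5, 104435118 to 104441050 on GRCm38), had 19079, 22602, 19387 and 21262 CPM at day 21, against 1473 and 1429 CPM at day 0. Fn1, fibronectin of the matrix (chromosome 1, 71585520 to 71653200), had 12200.3, 8449, 10496 and 10543 CPM at day 21, against 56.4 and 84.9 CPM at day 0, and was lowest at day 21 in replicate 2. Thbs1, thrombospondin 1, an activator of latent TGF-beta, had 9497, 8911, 8964 and 9271 CPM at day 21, against 234 and 249 CPM at day 0. For all 3 genes the 4 day 21 libraries lay far above both day 0 libraries. The actin crosslinker gene Flna and the giant scaffold gene Ahnak were in the same top 10 and rose by 4.55 and 2.30 on the log2 scale. At day 0 the top 10 held Kap, an androgen-regulated kidney protein, with 34361 and 35647 CPM against 13.5, 15.6, 15.0 and 13.8 CPM at day 21, and Lrp2 and Umod, which follow below. Non-coding RNAs of the nucleus and mitochondrial RNAs made up the rest of both lists. The gene mt-Co1, a cytochrome oxidase subunit of mitochondrial DNA, had 1394, 1463, 1578 and 1545 CPM at day 21, against 25616 and 25000.1 CPM at day 0. The nuclear RNA Malat1 had 16905, 15208, 13573 and 15889 CPM at day 21, against 22265 and 21316 CPM at day 0, and its change of -0.50 became 0.02 when scaled by library size alone.

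The largest rises with at least 4 counts at day 0 were those of St8sia2, Inhba, Gdf6, Dkk3, Sox8, B4galnt2, Ccnd2, Aldh1a2, Clstn2 and Col11a1. St8sia2, which puts polysialic acid on the adhesion molecule NCAM (chromosome 7, 73939119 to 74013690), had 225, 201, 196 and 189.6 CPM at day 21, against 0.0662 and 0.456 CPM at day 0, and its log2 fold change was 9.63 ± 0.45 (SE, adjusted p = 5.34e-12), or 8.78 and 11.42 without day 0 replicate 1 or 2. Inhba encodes the activin A subunit and had 82.5, 44.5, 56.5 and 72.7 CPM at day 21, against 0.331 and 0.152 CPM at day 0, with day 21 replicate 2 lowest. Aldh1a2, the retinoic acid synthesizing enzyme of the embryo, had 208, 227, 212 and 213 CPM at day 21, against 1.46 and 0.837 CPM at day 0. The cyclin D gene Ccnd2, which drives cells into the cycle, had 1250.2, 1057, 1029 and 1089 CPM at day 21, against 4.64 and 7.30 CPM at day 0. Gdf6, a bone morphogenetic protein, had 45.6 to 59.3 CPM at day 21, Sox8, a transcription factor, 31.7 to 41.6 CPM and the fibrillar collagen gene Col11a1 29.6 to 34.0 CPM, each with under 0.5 CPM at day 0. Lack of overlap between the libraries of both days was a condition for choosing these 10 genes and is no result. It held in 41.3% of all genes, which were higher, and 40.2%, which were lower. Of genes with fewer than 4 counts at day 0, the highest at day 21 were Adgra1, an adhesion receptor gene, with 125, 94.98, 118 and 118 CPM, Cdkn2a, Klhl1, Csmd1 and Hmga2. Hmga2, an architectural chromatin protein of embryonic tissue, had 53.9, 50.3, 48.0 and 47.1 CPM at day 21 and 0.0662 and 0.152 CPM at day 0, a ratio of counts of 468 (95% counting interval 160.1 to 2272).

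**Figure D1:**
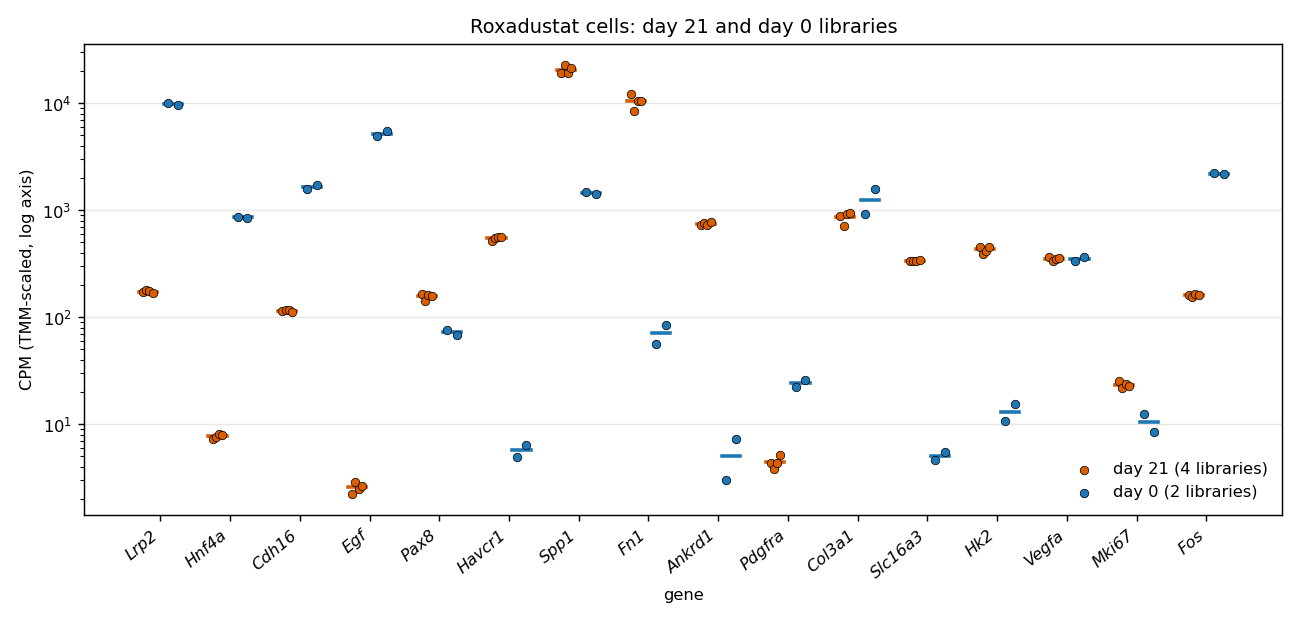
CPM on a log axis of 16 genes in each of the 4 day 21 libraries (left of each pair, orange) and the 2 day 0 libraries (right, blue) of roxadustat cells. Points are libraries and bars are means. Tubule genes such as Lrp2 and Cdh16 lie lower at day 21, Pax8, Havcr1, Fn1 and Slc16a3 higher, and the libraries of both days overlap for Vegfa and Col3a1.

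Genes of tubule function fell throughout. All 27 proximal tubule genes tested fell, with a median log2 fold change of -8.86, and so did all 24 genes of the loop, distal tubule and collecting duct, with a median of -10.24. The summed level of the second list was 67.0 to 72.3 CPM at day 21 and 19376 to 21965 CPM at day 0. Umod, uromodulin of the thick ascending limb (chromosome 7, 119462711 to 119479282), had 2 counts in day 21 replicate 2 and none in the other 3 libraries, against 6757 and 8110.1 CPM at day 0. Its ratio of counts was 233081-fold lower (95% counting interval 64523 to 1924639). Slc22a6, the organic anion transporter 1, and Fbp1 and G6pc, enzymes of gluconeogenesis, had 0 counts in all 4 day 21 libraries. At day 0 they averaged 1531, 1324 and 622 CPM. Against a floor of 3 counts over the day 21 group they were at least 32237-fold, 27766-fold and 13076-fold lower. The same held for Klk1, tissue kallikrein, which has close relatives in its gene cluster, and Cyp2e1, an oxidase of drugs and alcohol, which were at least 48604-fold and 43204-fold lower. Slc34a1, the sodium phosphate cotransporter, and Acsm2 had fewer than 4 counts over the day 21 group, against means of 4878 and 5767 CPM at day 0.

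Other tubule genes kept a low but measured level. Lrp2, megalin, the endocytic receptor of the proximal tubule (chromosome 2, 69424340 to 69586065), had 171, 178, 176 and 169.5 CPM at day 21, against 10056 and 9642 CPM at day 0, with a log2 fold change of -5.83 ± 0.09 (SE, adjusted p = 8.63e-28). The 4 day 21 libraries stayed close to each other. Hnf4a, the transcription factor that drives proximal tubule genes (chromosome 2, 163506808 to 163572910), had 7.21, 7.61, 8.05 and 7.92 CPM at day 21, against 872 and 853 CPM at day 0. Kap fell by 11.24 on the log2 scale, the ectoenzyme gene Ggt1 by 5.25 and the bicarbonate transporter gene Slc4a4 by 3.32. The largest falls were ranked under the conditions used for the rises, with at least 4 counts at day 21. Among the top 10 were the protease gene Mep1a, the fatty acid transporter gene Slc27a2, the inositol oxygenase gene Miox and the dicarboxylate transporter gene Slc13a3, the channel gene Kcnj1 and the thiazide-sensitive cotransporter gene Slc12a3, with log2 fold changes of -14.18, -13.67, -13.34, -13.28, -12.75 and -12.55. The others were Slc7a13, Spink1, Aldh8a1 and Ces1f. Trpm6, a magnesium channel gene (43.5, 44.4, 46.5 and 45.2 CPM at day 21, against 107 and 89.1 CPM at day 0), and the kinase gene Wnk4 fell least of their list.

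Markers of kidney epithelium moved in both directions. Of 22 general kidney epithelial markers 17 fell, 4 rose and Cd24a did not pass the test, with a median log2 fold change of -2.56. Pax8, a transcription factor of kidney epithelium from the embryo on (chromosome 2, 24420560 to 24475599), had 166, 143, 161 and 158 CPM at day 21, against 76.1 and 68.9 CPM at day 0, with a log2 fold change of 1.11 ± 0.07 (SE, adjusted p = 1.51e-13). The factor gene Pax2 rose by 1.89, and the tight junction gene Cldn3 by 0.70. Adhesion genes fell by far more. Cdh1, E-cadherin, had 1.56, 2.22, 2.09 and 2.36 CPM at day 21, against 265 and 246 CPM at day 0. Epcam, an epithelial adhesion molecule, had 2.86, 2.44, 2.58 and 3.44 CPM at day 21, against 123 and 155 CPM at day 0. Cdh16, kidney-specific cadherin (chromosome 8, 104601911 to 104624396), had 114, 117, 118 and 111 CPM at day 21, against 1578 and 1739.5 CPM at day 0. In each of the 3 genes the days were far apart. The tight junction gene Cldn4 and the splicing factor gene Esrp1 fell by 4.21 and 2.21 on the log2 scale. The keratin gene Krt8 had 42.3, 49.4, 46.6 and 50.7 CPM at day 21, against 278 and 244 CPM at day 0. Its partner Krt18 had 49.9, 59.1, 48.8 and 53.1 CPM at day 21, against 71.8 and 67.0 CPM at day 0. The fall of Krt18 by 0.39 turned into a change of 0.13 (adjusted p = 0.264) when scaled by library size alone, and its call also ended with upper quartile scaling (-0.21, adjusted p = 0.0570).

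Genes of tubule injury and repair were mostly higher. Of 25 tested, 17 rose and 8 fell, 68.0% and 32.0% against 38.9% and 38.6% of all genes. Havcr1, kidney injury molecule 1, a receptor for dying cells that healthy tubules lack (chromosome 11, 46735080 to 46779578), had 514, 549, 557 and 563 CPM at day 21, against 4.97 and 6.47 CPM at day 0, with a log2 fold change of 6.58 ± 0.35 (SE, adjusted p = 7.12e-11). Every day 21 library was above both day 0 libraries. Cdh6, a cadherin of developing and injured tubules, had 447, 388, 384 and 402 CPM at day 21, against 4.31 and 5.32 CPM at day 0. Sox9, a factor of repairing tubule cells, had 34.2, 25.1, 29.5 and 27.2 CPM at day 21, against 2.25 and 2.28 CPM at day 0. In both genes the days were far apart. Cd44, a hyaluronan receptor of injured tubules, had 277, 269, 281 and 263 CPM at day 21, against 8.28 and 13.01 CPM at day 0. Vcam1, an adhesion gene of tubules that fail to recover, had 173, 185, 182 and 178 CPM at day 21, against 14.0 and 14.9 CPM at day 0. Vim, the intermediate filament of mesenchymal and injured epithelial cells, had 2442, 2264, 2445 and 2498 CPM at day 21, against 66.2 and 103 CPM at day 0. The annexin gene Anxa3 and the matrix protease inhibitor gene Timp1 rose by 5.58 and 3.38. Among the lower ones were the complement gene C3, the chemokine genes Ccl2 and Cxcl1, the chaperone gene Clu, the integrin gene Itgb6, Krt7 and Lcn2. Itgb6 had 9.66, 11.9, 11.0 and 11.8 CPM at day 21, against 386 and 401 CPM at day 0. Lcn2, which encodes the urinary injury marker NGAL, had 3.13, 2.61, 3.28 and 2.16 CPM at day 21, against 7.02 and 6.54 CPM at day 0.

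Markers of blood, vessel and immune cells mostly fell. All 22 macrophage and dendritic cell markers fell, and their summed level was 57.8 to 62.9 CPM at day 21, against 429 to 624 CPM at day 0. Lyz2, lysozyme of myeloid cells, had 4.69, 5.44, 4.87 and 4.67 CPM at day 21, against 50.5 and 61.0 CPM at day 0. Ptprc, the leukocyte antigen CD45, had 0.953, 0.999, 0.497 and 0.492 CPM at day 21, against 19.6 and 16.7 CPM at day 0. H2-Ab1 and Cd14 made up most of what was left, and the fall of Cd14 (log2 fold change -0.28, adjusted p = 0.0427) ended without day 21 replicate 1, 2 or 4 or day 0 replicate 1 and became 0.24 when scaled by library size alone. The class II gene H2-Ab1 had 21.6, 20.0, 23.0 and 22.4 CPM at day 21, against 53.1 and 31.6 CPM at day 0, while its partner gene H2-Aa had 0.0680, 0.0555, 0 and 0 CPM at day 21, against 72.5 and 39.2 CPM at day 0. The class II invariant chain gene Cd74 had 0.204, 0.0555, 0 and 0.0983 CPM at day 21, against 106 and 58.6 CPM at day 0. The day 21 libraries thus held few or no counts of H2-Aa and Cd74, while H2-Ab1 kept a measured level. Of 24 endothelial markers 21 fell and 2, Flt1 and Eng, rose. The list summed to 129.9 to 139 CPM at day 21, against 265 to 303 CPM at day 0. Pecam1, the endothelial adhesion molecule CD31, had 0.272, 0.167, 0.497 and 0.0983 CPM at day 21, against 22.1 and 24.3 CPM at day 0. Flt1, a receptor of the vascular growth factor VEGF, had 73.6, 74.7, 70.6 and 71.1 CPM at day 21, against 22.1 and 22.1 CPM at day 0. Flt1 was above its day 0 level in all 4 libraries. The red blood cell list summed to 7.47 to 9.99 CPM at day 21, against 140.4 to 142 CPM at day 0, and the lymphocyte and neutrophil list to 0.836 to 1.43 CPM, against 6.96 to 7.30 CPM. The part that these cells had in other changes was not tested. Of 11 podocyte markers 8 fell, Nphs1 of the slit diaphragm among them, and 2 rose. The factor gene Wt1, one of those that rose, had 28.4, 25.9, 26.5 and 26.5 CPM at day 21, against 1.92 and 4.34 CPM at day 0. The actin-binding gene Synpo, the other, had 189, 116, 163 and 162 CPM at day 21, against 5.37 and 9.43 CPM at day 0.

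Fibroblast genes moved in both directions. Of 22 interstitial fibroblast markers 7 rose and 12 fell, with a median of -1.24. This median leaned on members with low counts. It was -0.16 among 19 markers with a mean of at least 1 CPM, of which 7 rose and 9 fell. When only the groups compared were fitted it was -0.38 among 20, with 7 higher and 9 lower. Pdgfra, a platelet-derived growth factor receptor of fibroblasts (chromosome 5, 75152292 to 75198215), had 4.35, 3.83, 4.37 and 5.11 CPM at day 21, against 22.5 and 26.0 CPM at day 0. Pdgfrb, the related receptor of pericytes (chromosome 18, 61045150 to 61085061), had 125, 114, 118 and 121 CPM at day 21, against 3.97 and 6.08 CPM at day 0. Libraries of both days did not overlap in either gene, which changed in opposite directions. Dcn, the collagen-binding proteoglycan decorin, had 19.5, 22.3, 20.7 and 22.2 CPM at day 21, against 97.4 and 133 CPM at day 0. Pi16 and Dpt, which mark adventitial fibroblasts, fell by 8.73 and 5.37. Col1a1, fibrillar collagen I, had 1214, 522, 953 and 968 CPM at day 21, against 102 and 156 CPM at day 0, and was lowest at day 21 in replicate 2. Col3a1, collagen III, had 886, 719.5, 929 and 944 CPM at day 21, against 918 and 1590.1 CPM at day 0. Day 21 replicates 3 and 4 lay above day 0 replicate 1. The log2 fold change of Col3a1 was -0.53 ± 0.17 (SE, adjusted p = 0.0102), and its call ended without day 0 replicate 2 (-0.08, adjusted p = 0.672) and when scaled by library size alone (-0.01, adjusted p = 0.946). The call also ended with upper quartile scaling (-0.35, adjusted p = 0.0726) and when only the groups compared were fitted (-0.56, adjusted p = 0.107). Nt5e, the ectoenzyme CD73 of mesenchymal and proximal tubule cells, had 389, 431, 419 and 408 CPM at day 21, against 274 and 218 CPM at day 0. Fbln2, a matrix glycoprotein, rose by 5.13.

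Contractile genes and stromal cell markers rose in larger part. Of 15 pericyte and smooth muscle markers 10 rose and 4 fell. Acta2, the smooth muscle actin of myofibroblasts, had 608, 691, 649 and 675 CPM at day 21, against 5.17 and 14.8 CPM at day 0. Des, the muscle intermediate filament desmin, had 213, 221, 207 and 219 CPM at day 21, against 1.66 and 1.75 CPM at day 0. The calponin gene Cnn1 rose by 6.46. The pericyte genes Rgs5, Kcnj8 and Abcc9 and the renin gene Ren1 fell, with Rgs5 at 0.816, 0.611, 0.596 and 0.688 CPM at day 21, against 12.9 and 23.9 CPM at day 0. Lepr, the leptin receptor of stromal cells, had 27.1, 27.8, 31.1 and 26.9 CPM at day 21, against 1.39 and 1.22 CPM at day 0. Nes, the progenitor filament nestin, had 484, 388, 430.2 and 467 CPM at day 21, against 8.41 and 13.3 CPM at day 0. Both were far above their day 0 level in every day 21 library. Thy1 and Cd34 rose by 2.49 and 1.49.

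Extracellular matrix genes rose together. Of 37 tested, 29 rose and 7 fell, with a median log2 fold change of 2.33, against 0.07 for all genes. Tnc, tenascin C of healing tissue, had 2961, 2850.1, 2920.4 and 2938 CPM at day 21, against 12.8 and 42.8 CPM at day 0. Col12a1, a collagen that sits on fibrils, had 1635, 1625, 1553 and 1568 CPM at day 21, against 18.4 and 22.1 CPM at day 0. Day 0 libraries held little of either. Ccn2, a matrix-associated growth factor that TGF-beta and YAP raise, had 3087, 2914, 3107 and 3129 CPM at day 21, against 32.2 and 29.5 CPM at day 0, with a log2 fold change of 6.63 ± 0.09 (SE, adjusted p = 1.30e-28). In each of these 3 genes the libraries of both days were apart by more than the whole range within a day. The crosslinking enzyme genes Loxl2 and Lox rose by 5.80 (6.49 without day 0 replicate 2) and 5.26, and Mmp2 and Mmp14, which cut matrix, by 3.85 and 3.69. The basement membrane collagen genes Col4a1 and Col4a2 rose by 2.25 and 2.48. Among the genes that fell were Col6a1, Col6a2, Col6a3, Eln, Tgfbi and Timp3, and the call of Col6a1 ended without day 0 replicate 2 (-0.17, adjusted p = 0.366) and when scaled by library size alone (-0.04, adjusted p = 0.847). The elastin gene Eln had 0.136, 0.167, 0.199 and 0.295 CPM at day 21, against 10.1 and 14.8 CPM at day 0. Postn, periostin of healing tissue, had 204, 229.7, 209 and 209 CPM at day 21, against 85.0 and 179 CPM at day 0. Its log2 fold change of 0.70 was 1.32 without day 0 replicate 2, and its call ended when only the groups compared were fitted (0.66, adjusted p = 0.124).

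Genes that tether cells to the matrix and to actin rose with them. Of 29 YAP target and focal adhesion genes 26 rose, 1 fell (Actg1, which has near-identical copies) and Ccn1 and Pxn did not pass the test. Both passed as higher in edgeR when scaled by library size alone (0.73 and 0.47). Ccn1 also passed with upper quartile scaling (0.40) and without the filter on low counts (0.22). Its change of 0.21 was 0.68 without day 0 replicate 1. YAP is a coactivator that enters the nucleus in spread cells and acts through TEAD factors. Its target Ankrd1 (chromosome 19, 36111961 to 36120099) had 728, 767, 732 and 771 CPM at day 21, against 2.98 and 7.23 CPM at day 0. Amotl2, a target that binds YAP in turn, had 789, 745, 798 and 788 CPM at day 21, against 222 and 155 CPM at day 0. The integrin genes Itgb1, Itga3 and Itga5 rose by 3.08, 3.79 and 4.56, and the actin crosslinker gene Actn1 by 5.24. Both targets, shown because they rose with the list, hold the letters of the TEAD element in the 250 bases before their start, printed here from RefSeq on GRCm38.p6 for Ankrd1 (chr19:36119845-36120094, minus strand) and Amotl2 (chr9:102717554-102717803, plus strand) with GGAATG on either strand (CATTCC on the printed one) in capitals.
Ankrd1: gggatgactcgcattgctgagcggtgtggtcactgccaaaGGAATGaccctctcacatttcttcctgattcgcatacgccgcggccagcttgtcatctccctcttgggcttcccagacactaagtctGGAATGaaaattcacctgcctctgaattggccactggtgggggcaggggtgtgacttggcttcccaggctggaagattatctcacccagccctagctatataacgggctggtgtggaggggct
Amotl2: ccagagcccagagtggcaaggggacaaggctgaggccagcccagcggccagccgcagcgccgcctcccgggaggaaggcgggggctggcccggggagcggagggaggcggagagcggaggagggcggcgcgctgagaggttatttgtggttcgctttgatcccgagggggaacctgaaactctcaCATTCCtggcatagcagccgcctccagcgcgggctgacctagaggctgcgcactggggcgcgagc
The matches begin 210 and 123 bases before the start of Ankrd1 and 65 bases before that of Amotl2. These starts are those of RefSeq. For Ankrd1 the start and both matches lie inside the gene position given above, which is that of GENCODE. Among 24 genes of the list with a promoter in RefSeq, 11 (45.8%) held such a match, against 14.4% of all 27025 genes with one. The list was made up in part of YAP targets, so its share is no result of these data. The match is a description of these letters and not a measured binding site.

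Of 17 regulators and markers of epithelial-mesenchymal transition 15 rose and 2, Cdh1 and Tgfbr1, fell, the fall of Tgfbr1 turning into a rise of 0.18 when scaled by library size alone. Cdh2, N-cadherin, which proximal tubule cells also carry, had 454, 472, 440.4 and 442 CPM at day 21, against 5.10 and 5.93 CPM at day 0, opposite to Cdh1. Cdh11, the mesenchymal cadherin, had 277, 312, 284 and 290.4 CPM at day 21, against 4.17 and 4.64 CPM at day 0. The repressor genes Snai1, Snai2, Twist1, Zeb1 and Zeb2 rose by 3.36, 3.73, 2.85, 2.67 and 2.05. Snai1 had 1.38 to 2.49 CPM at day 21 and 0.0761 to 0.265 CPM at day 0, and its fold change was 4.50 on the log2 scale without day 0 replicate 1. Tgfb2, a TGF-beta ligand gene, had 47.5, 43.9, 49.3 and 49.1 CPM at day 21, against 1.66 and 1.98 CPM at day 0.

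**Figure D2:**
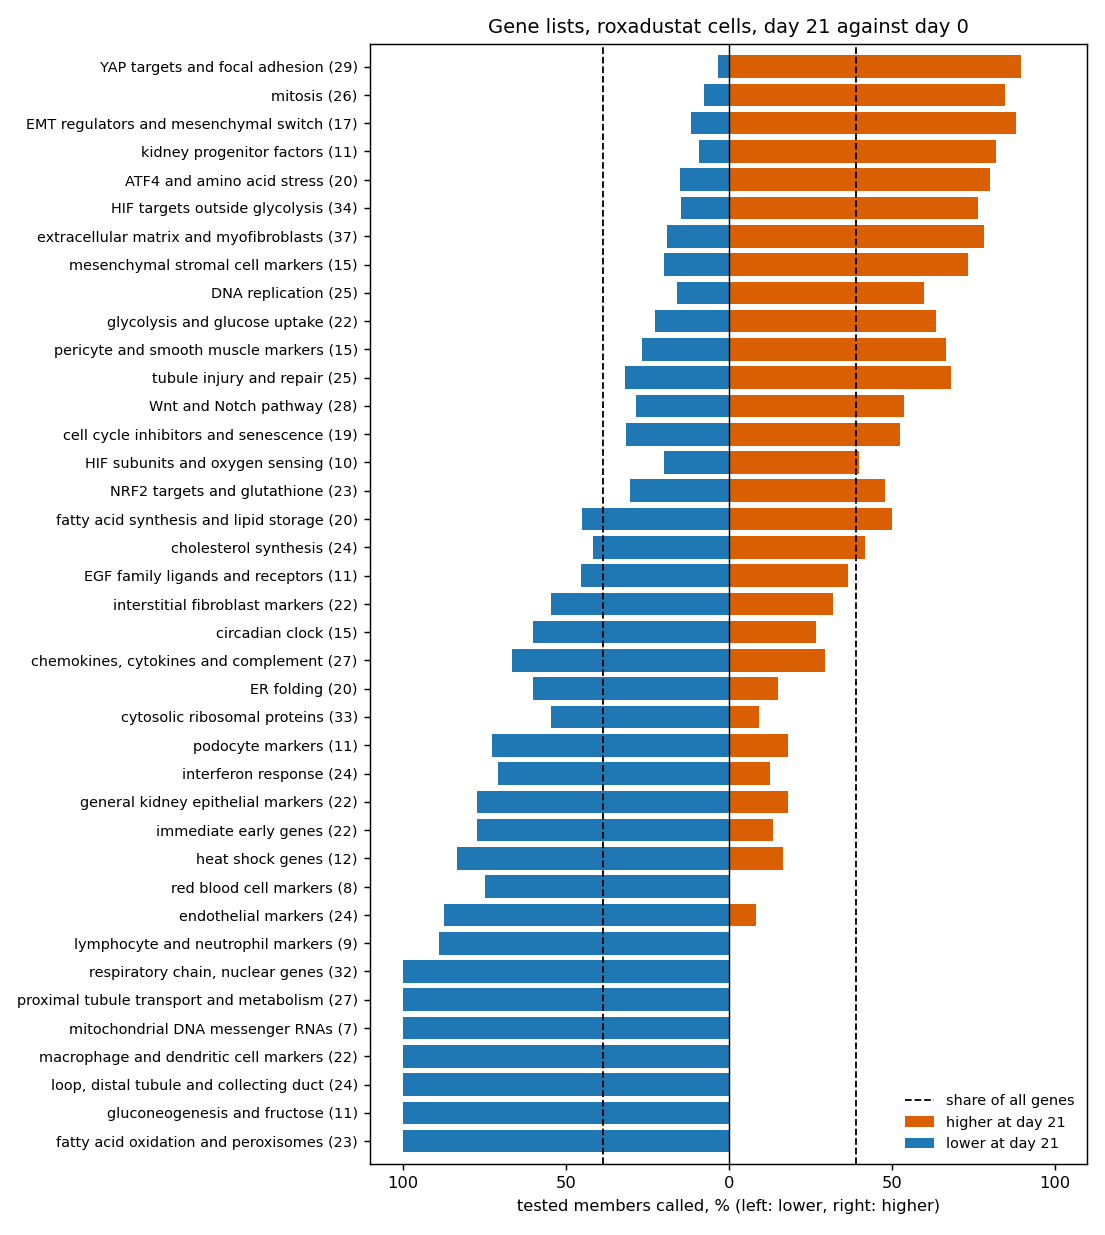
Share of tested members of each of the 39 gene lists that were higher (orange, to the right) or lower (blue, to the left) in roxadustat cells at day 21 than at day 0, with the number tested in brackets and dashed lines at the shares of all genes (38.9% higher, 38.6% lower). Tubule, fatty acid oxidation and respiratory chain lists lie wholly to the left, and focal adhesion, EMT, mitosis and matrix lists mostly to the right.

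HIF targets were mostly above their level in the freshly isolated cells of injected mice. Of 34 HIF targets outside glycolysis 26 rose (76.5%, against 38.9% of all genes) and 5 fell, with a median log2 fold change of 1.25. Slc16a3, which exports lactate (chromosome 11, 120948480 to 120960868), had 333, 336, 333 and 339 CPM at day 21, against 4.64 and 5.48 CPM at day 0, with a log2 fold change of 6.05 ± 0.12 (SE, adjusted p = 1.22e-25). The day 21 libraries lay close together. Egln3, a HIF prolyl hydroxylase that HIF itself raises, had 60.0, 64.3, 59.7 and 58.4 CPM at day 21, against 11.3 and 9.66 CPM at day 0. Hmox1, which breaks down heme and also answers to NRF2, had 1147, 813, 1149.8 and 1211 CPM at day 21, against 62.9 and 58.7 CPM at day 0, with day 21 replicate 2 lowest. All 3 genes were higher in every day 21 library. Mgarp, a mitochondrial protein that HIF raises, had 49.3, 52.4, 52.3 and 54.2 CPM at day 21, against 0.662 and 0.228 CPM at day 0. Ndufa4l2, which HIF raises to dampen complex I, had 49.3, 43.1, 49.6 and 46.3 CPM at day 21, against 1.13 and 1.75 CPM at day 0. Adm, the vasodilator adrenomedullin, and P4ha1, a collagen prolyl hydroxylase subunit, rose by 2.26 and 2.33. Ankrd37 rose by 0.47, a call that ended without day 0 replicate 2 (0.44, adjusted p = 0.0534). Vegfa, the vascular growth factor (chromosome 17, 46016993 to 46032369), had 362, 334, 352 and 361 CPM at day 21, against 336 and 364 CPM at day 0, and did not pass the test, with a log2 fold change of 0.01 ± 0.06 (SE, adjusted p = 0.890). Its libraries overlapped between the days, and scaling by library size alone gave a change of 0.53 that passed. Car9, carbonic anhydrase 9 (chromosome 4, 43506966 to 43513729), had 8.37, 7.83, 7.46 and 8.75 CPM at day 21, against 25.9 and 21.1 CPM at day 0, and fell by 1.53 on the log2 scale. Ndrg1 had 92.5, 94.4, 90.5 and 91.5 CPM at day 21, against 2778 and 2029.9 CPM at day 0. Car12, the transferrin receptor gene Tfrc and Mxi1 also fell, by 2.98, 0.76 and 0.39, and Cited2 and Bhlhe40 did not pass the test. Both passed as higher in edgeR when scaled by library size alone (0.67 and 0.68) and with upper quartile scaling (0.34 each). Bhlhe40, at 0.16 (adjusted p = 0.0594), also passed with a mean of at least 1 CPM and without day 21 replicate 2. Cited2 changed by 0.15, and by 0.38 without day 0 replicate 1. The fall of Mxi1 turned into a change of 0.13 (adjusted p = 0.137) when scaled by library size alone.

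HIF binds the letters ACGTG or GCGTG, and these are shown in capitals, on either strand, in the 250 bases before the start of 3 genes that rose and of Car9, which fell. They are Slc16a3 (chr11:120948817-120949066, plus strand), Hk2 (chr6:82774455-82774704, minus strand), Ankrd37 (chr8:45999851-46000100, minus strand) and Car9 (chr4:43506776-43507025, plus strand).
Slc16a3: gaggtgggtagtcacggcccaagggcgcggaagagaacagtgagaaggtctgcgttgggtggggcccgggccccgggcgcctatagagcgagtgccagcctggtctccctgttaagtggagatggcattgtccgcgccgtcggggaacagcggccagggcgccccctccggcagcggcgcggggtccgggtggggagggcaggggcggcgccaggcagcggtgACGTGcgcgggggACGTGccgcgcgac
Hk2: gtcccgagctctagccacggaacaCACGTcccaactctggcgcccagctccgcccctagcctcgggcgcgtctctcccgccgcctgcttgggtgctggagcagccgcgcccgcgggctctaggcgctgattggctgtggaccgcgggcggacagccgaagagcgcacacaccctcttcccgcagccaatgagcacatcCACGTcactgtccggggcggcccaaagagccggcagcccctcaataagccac
Ankrd37: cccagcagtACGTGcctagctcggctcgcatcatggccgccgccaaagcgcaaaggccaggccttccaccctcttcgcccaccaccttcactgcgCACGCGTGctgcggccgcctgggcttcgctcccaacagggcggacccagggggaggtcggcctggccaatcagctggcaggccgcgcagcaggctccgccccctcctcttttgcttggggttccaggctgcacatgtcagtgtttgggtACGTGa
Car9: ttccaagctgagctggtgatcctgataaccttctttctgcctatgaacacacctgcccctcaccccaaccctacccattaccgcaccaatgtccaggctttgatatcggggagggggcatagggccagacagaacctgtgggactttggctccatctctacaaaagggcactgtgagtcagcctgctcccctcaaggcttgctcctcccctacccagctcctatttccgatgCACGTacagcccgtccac
In Slc16a3 the matches begin 27 and 14 bases before the start, in Hk2 226 and 52, in Ankrd37 241, 155, 152 and 6, the middle ones overlapping, and in Car9 18. These starts are those of RefSeq. For Slc16a3 and Car9 they lie inside the gene positions given above, which are those of GENCODE, and so do the matches. Among 25 HIF targets with a promoter in RefSeq, 23 (92.0%) held a match, against 41.5% of all genes with one. Hk2 belongs to the glycolysis list, of which 18 of 21 genes (85.7%) held one. The HIF list was made up of HIF targets, so its share is no result of these data. A match stood both in genes that rose and in one that fell, and the letters are not measured binding sites.

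Genes that make glucose fell and most of those that break it down rose. All 11 genes of gluconeogenesis and fructose use fell, with a median of -6.61. Of 22 genes of glycolysis and glucose uptake 14 rose and 5 fell (18 and 2 when scaled by library size alone), with a median of 0.63. Pck1, the enzyme that commits carbon to glucose, had 2.72, 3.22, 2.98 and 2.51 CPM at day 21, against 3452 and 4996 CPM at day 0. Hk2, the hexokinase that traps glucose, had 457, 390.0, 419.6 and 456 CPM at day 21, against 10.7 and 15.4 CPM at day 0. The glucose transporter gene Slc2a1 had 267, 246, 261 and 264 CPM at day 21, against 84.3 and 81.2 CPM at day 0. The pyruvate kinase gene Pkm had 1348, 1621, 1415 and 1483 CPM at day 21, against 241 and 232 CPM at day 0. For each of these 4 genes the libraries of both days were apart. Ldhb, the heart form of lactate dehydrogenase, had 69.1, 64.5, 68.7 and 69.9 CPM at day 21, against 731 and 693 CPM at day 0. Ldha, the muscle form, had 975, 1196, 1029 and 1067 CPM at day 21, against 1095 and 1068 CPM at day 0, and did not pass the test (adjusted p = 0.827; 0.50 and passed when scaled by library size alone). The monocarboxylate importer gene Slc16a1 fell by 2.02. Gapdh, Pgk1 and Pgam1 have near-identical copies in the genome, and their counts are uncertain.

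Genes of the respiratory chain and of fatty acid oxidation fell throughout, while some other genes of mitochondrial proteins, such as Mgarp above, rose. All 32 nuclear genes of the respiratory chain fell, with a median log2 fold change of -2.43, and all 23 genes of fatty acid oxidation and peroxisomes, with a median of -3.79. Atp5b, the catalytic subunit of ATP synthase, had 608, 629.9, 651 and 658 CPM at day 21, against 3979.7 and 4033 CPM at day 0. Uqcrfs1 of complex III and Sdhb of complex II fell by 3.07 and 2.86. Ppargc1a, the coactivator that raises mitochondrial genes, had 3.47, 3.44, 3.58 and 3.20 CPM at day 21, against 136 and 134 CPM at day 0. Ppara, the receptor that drives fatty acid oxidation, had 1.84, 1.33, 2.09 and 1.48 CPM at day 21, against 86.6 and 88.2 CPM at day 0. Acadm, a dehydrogenase of fatty acids, and Ehhadh of peroxisomes fell by 3.79 and 7.09. Of 13 messenger RNAs of mitochondrial DNA the 7 that could be tested all fell, with a median of -2.82, and the other 6 were at or near 0 counts in every library. Of the HIF system itself, Hif1a had 117, 131, 122 and 122 CPM at day 21, against 182 and 177 CPM at day 0, and fell by 0.54, a change of -0.02 that did not pass when scaled by library size alone. Epas1, the HIF-2 alpha subunit that drives Epo in the kidney, had 26.5, 18.7, 18.5 and 20.3 CPM at day 21, against 27.8 and 26.2 CPM at day 0. It did not pass the test (-0.36, adjusted p = 0.153). Epas1 passed as lower in edgeR when only the groups compared were fitted (-0.40, adjusted p = 0.0121). The same held without the filter on low counts (-0.35, adjusted p = 0.0015) and with replicate number in the model (-0.51, adjusted p = 0.0438). Egln1, the main HIF prolyl hydroxylase, rose by 1.28, and Egln2 fell by 0.91.

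Most genes of mitosis rose, and genes that halt the cell cycle moved in both directions. Of 26 mitosis genes 22 rose and 2 fell, with a median of 1.20, and of 25 DNA replication genes 15 rose and 4 fell. Mki67, a marker of cycling cells (chromosome 7, 135689784 to 135716361), had 25.1, 22.04, 23.7 and 22.7 CPM at day 21, against 12.5 and 8.52 CPM at day 0, with a log2 fold change of 1.14 ± 0.29 (SE, adjusted p = 0.00214). The spindle gene Tpx2 had 16.6, 15.0, 16.5 and 16.6 CPM at day 21, against 3.05 and 2.89 CPM at day 0. Rrm1, a subunit of the reductase that makes DNA precursors, had 87.0, 94.9, 87.1 and 89.6 CPM at day 21, against 18.4 and 20.1 CPM at day 0. Pcna and Mcm6 fell by 0.81 and 1.34. Cdkn2a, the locus of the senescence proteins p16 and p19 (chromosome 4, 89274471 to 89294653), had 105, 106, 109.5 and 117 CPM at day 21, against 0.0662 and 0.152 CPM at day 0, with 1 and 2 counts in the day 0 libraries and a ratio of counts of 1036 (95% counting interval 354 to 5022). Its neighbour Cdkn2b had 156, 181, 171 and 171 CPM at day 21, against 3.18 and 2.28 CPM at day 0. Cdkn1a, the p53 target p21, had 341, 285, 267 and 282 CPM at day 21, against 19.1 and 16.1 CPM at day 0. Mdm2, which degrades p53 and is its target, had 545, 552, 538 and 539.9 CPM at day 21, against 91.7 and 90.8 CPM at day 0. All day 21 libraries were above both day 0 libraries for these 4 genes, as they were for 41.3% of all genes. Gdf15, a stress cytokine, rose by 2.87, and Cdkn1b and the lysosomal galactosidase gene Glb1 fell by 1.15 and 2.34. Of the 19 inhibitor and senescence genes 10 rose and 6 fell.

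Immediate early genes were mostly lower at day 21. Of 22 immediate early genes, which switch on within minutes of a stimulus or of tissue digestion, 17 fell and 3 rose, with a median of -1.95. Fos had 160.2, 154, 167 and 163 CPM at day 21, against 2214 and 2174 CPM at day 0. Jun, its partner in the factor AP-1, had 131, 124, 115 and 127 CPM at day 21, against 1557 and 1466 CPM at day 0. Atf3, a repressor of stressed cells, had 27.6, 29.8, 25.4 and 25.4 CPM at day 21, against 1104 and 1212 CPM at day 0. Replicates of a day were close to each other in all 3 genes. The receptor gene Nr4a1 fell by 4.73. The 3 genes that rose were Fosl1, of which 57.2% of exon bases overlap another gene, Fosl2, which rose by 1.67, and Egr3, by 1.75 (2.44 for Egr3 without day 0 replicate 1). Of 12 heat shock genes 10 fell, and Bag3 and the small heat shock gene Hspb1 rose. Hspa1a, which has a near-identical copy in Hspa1b and is uncertain by that, had 2.25, 1.94, 1.79 and 1.52 CPM at day 21, against 62.3 and 82.2 CPM at day 0.

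Amino acid stress genes formed the opposite pattern. Of 20 ATF4 and amino acid stress genes 16 rose and 3 fell, with a median of 2.99. Slc7a11, the cystine importer, had 121, 141, 138 and 129 CPM at day 21, against 1.79 and 2.21 CPM at day 0. Asns, asparagine synthetase, had 141, 151, 150.0 and 150.1 CPM at day 21, against 5.83 and 7.53 CPM at day 0. The serine synthesis gene Phgdh and the proline synthesis gene Aldh18a1 rose by 4.24 and 4.30. Atf4 itself had 285, 297, 315 and 324 CPM at day 21, against 306 and 316 CPM at day 0, and did not pass the test (adjusted p = 0.740; 0.49 and passed when scaled by library size alone). The genes that fell were Ddit3, Shmt2 and Slc3a2, and the fall of Slc3a2 by 0.34 became 0.18 when scaled by library size alone. Of 20 genes of ER folding 3 rose and 12 fell, but 6 rose and 7 fell when scaled by library size alone. Serpinh1, the collagen chaperone, had 675, 781, 703 and 722 CPM at day 21, against 197 and 256 CPM at day 0. Herpud1, which clears misfolded proteins, fell by 2.34. Of 23 NRF2 targets and glutathione genes 11 rose and 7 fell, close to the shares of all genes. Txnrd1, thioredoxin reductase, had 989, 1069.9, 964 and 996 CPM at day 21, against 331 and 286 CPM at day 0. The peroxidase gene Gpx1 had 197, 222, 209 and 211 CPM at day 21, against 2784 and 2318 CPM at day 0, so that members of 1 list moved in opposite directions. In 24 genes of cholesterol synthesis 10 rose and 10 fell. Hmgcs1, an early enzyme of the pathway, had 107, 113, 101 and 111 CPM at day 21, against 1358 and 1252 CPM at day 0. Among 20 genes of fatty acid synthesis and storage 10 rose and 9 fell. The lipid droplet gene Plin2 had 504, 556, 544 and 556 CPM at day 21, against 88.5 and 79.4 CPM at day 0. The fatty acid uptake gene Cd36 had 1.497, 1.44, 1.79 and 1.67 CPM at day 21, against 768 and 910.2 CPM at day 0.

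Interferon and cytokine genes were mostly lower. Of 24 interferon response genes 17 fell and 3 rose (15 and 7 when scaled by library size alone), with Irf1 at 12.5, 10.6, 13.1 and 11.8 CPM at day 21, against 205 and 193 CPM at day 0. Of 27 chemokines, cytokines and complement genes 18 fell and 8 rose. Cxcl10, which draws T cells, had 0.136, 0.222, 0.497 and 0.295 CPM at day 21, against 36.0 and 50.3 CPM at day 0. Il1b, an inflammatory cytokine, had 0.0680, 0, 0 and 0 CPM at day 21, against 30.8 and 23.3 CPM at day 0. Csf1, the growth factor of macrophages, had 421, 349, 394 and 396 CPM at day 21, against 14.5 and 17.3 CPM at day 0, and rose, opposite to the macrophage markers. The alarmin gene Il33 rose by 2.63.

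Genes of signals between cells changed in both directions. In the EGF family, Egf, which the distal nephron makes, had 2.25, 2.89, 2.49 and 2.65 CPM at day 21, against 4953 and 5465 CPM at day 0. Ereg, a ligand of wounds, had 89.3, 92.5, 104 and 88.8 CPM at day 21, against 0.861 and 0.532 CPM at day 0. The receptor gene Egfr rose by 1.80, and Erbb3 fell by 4.34. Erbb4 had 132, 137, 133 and 124 CPM at day 21, against 110.2 and 132 CPM at day 0, and did not pass the test (adjusted p = 0.142). Of 28 Wnt and Notch genes 15 rose and 8 fell. Dkk3, a secreted relative of Wnt inhibitors (chromosome 7, 112116017 to 112159057), had 679, 764, 727 and 712 CPM at day 21, against 3.18 and 3.73 CPM at day 0. Sfrp1, which binds Wnt ligands, had 2.25, 2.33, 2.58 and 2.21 CPM at day 21, against 279 and 308 CPM at day 0. The Notch ligand gene Jag1 had 884, 893, 836 and 852 CPM at day 21, against 43.8 and 49.1 CPM at day 0. Wnt5a and Wnt7b, ligand genes, and Axin2, a target of Wnt signals, rose by 3.30, 2.42 and 3.61. Among 11 kidney progenitor factors 9 rose, and Lhx1 fell. Sall1, a factor of nephron progenitors, had 131, 105, 105 and 112 CPM at day 21, against 33.6 and 36.1 CPM at day 0. Gdnf, the growth factor that makes the ureteric bud branch, had 10.2, 8.44, 9.64 and 8.46 CPM at day 21, against 0.0662 and 0.228 CPM at day 0. Six2, which defines nephron progenitors, had 0 counts in all 6 libraries. Of 15 clock genes 9 fell and 4 rose (6 and 5 when scaled by library size alone). The repressor gene Nr1d1 had 18.2, 9.33, 13.1 and 12.6 CPM at day 21, against 56.0 and 54.5 CPM at day 0. The output gene Hlf had 0.136, 0.0555, 0.0994 and 0.0492 CPM at day 21, against 31.1 and 34.5 CPM at day 0. Of 33 cytosolic ribosomal protein genes 18 fell and 3 rose, but 1 fell and 18 rose when scaled by library size alone, and many have near-identical copies, so no direction is given for them.

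The control arm, cultured for the same time, changed as widely, and the interaction contrast tested where both changes differed. In control cells 14754 genes (78.8%) passed the test between day 21 and day 0, with 39.7% of all genes higher and 39.1% lower. The difference between the arms passed for 8301 genes (44.3%), 4105 in the direction of higher (21.9%) and 4196 of lower (22.4%) in the roxadustat arm. Both comparisons lie in 1 fit, and the day 0 libraries of each arm are its own. The 2 control libraries of day 0 differed more than those of any other group, with a biological coefficient of variation of 16.9%. They enter every difference between the arms. Scaling by library size alone moved the median difference of all genes by 0.29 and gave 6225 upward and 2513 downward. A positive difference means a change that was more upward, or less downward, in the roxadustat arm.

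Epithelial markers fell further in the control arm. All 22 general epithelial markers differed upward, with a median change of -2.56 in the roxadustat arm and -7.30 in the control arm. Hnf4a, at 7.70 ± 0.373 CPM in roxadustat cells at day 21, had 0 counts in all 4 control libraries of that day, against 862 and 787 CPM in roxadustat and control cells at day 0. Cdh16 had 115 ± 2.94 CPM in cells of the roxadustat arm and 2.82 ± 0.380 CPM in those of the control arm at day 21 (mean ± SD, n = 4 each), a difference between the changes of 5.63 ± 0.11 on the log2 scale (SE, adjusted p = 4.79e-24). Pkhd1, the cilium protein fibrocystin of tubules, had 1019 ± 36.2 CPM in cells of the roxadustat arm and 28.6 ± 2.06 CPM in those of the control arm at day 21, a difference of 5.13 ± 0.10 on the log2 scale (SE, adjusted p = 4.79e-24). Myo5b, a motor of apical vesicles, Car2, a cytosolic carbonic anhydrase, Slc6a18, a proximal amino acid transporter, and Spns2, a sphingosine phosphate exporter, were the other genes with the smallest p upward, with differences of 6.10, 5.83, 7.17 and 5.37. Spns2 rose in the roxadustat arm by 4.03 and fell in the control arm by 1.35.

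Most injury and HIF genes differed in the same direction. Of 25 injury and repair genes 19 differed upward and 5 downward. Havcr1 had 546 ± 21.9 CPM in cells of the roxadustat arm and 9.26 ± 1.11 CPM in those of the control arm at day 21, with 5.72 and 10.5 CPM at day 0, a difference of 6.75 ± 0.48 on the log2 scale (SE, adjusted p = 1.03e-08). Leaving out control day 0 replicate 1 or 2 gave 7.46 or 5.33. Spp1 had 20582 ± 1656 CPM in cells of the roxadustat arm and 694 ± 79.4 CPM in those of the control arm at day 21, and its changes went in opposite directions, with 3.83 in the roxadustat and -1.46 in the control arm, a difference of 5.29 ± 0.14 on the log2 scale (SE, adjusted p = 1.45e-21). Of 34 HIF targets 30 differed upward and 2 downward, and the list's median change was 1.25 in the roxadustat and -0.67 in the control arm. Slc16a3 had 335 ± 3.23 CPM in cells of the roxadustat arm and 2.19 ± 0.634 CPM in those of the control arm at day 21, a difference of 6.54 ± 0.25 on the log2 scale (SE, adjusted p = 3.47e-18). Vegfa, which did not pass in the roxadustat arm, fell by 2.21 in the control arm, a difference of 2.22 ± 0.08 on the log2 scale (SE, adjusted p = 2.94e-18). In glycolysis 18 of 22 genes differed upward and 2 downward. For NRF2 targets the counts were 19 of 23 upward and 2 downward.

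Fibroblast, matrix and macrophage genes differed the other way. Of 37 matrix genes 29 differed downward and 5 upward, and the median change was 2.33 in the roxadustat and 5.87 in the control arm. Col3a1 had 869.6 ± 103 CPM in cells of the roxadustat arm and 17854 ± 1738 CPM in those of the control arm at day 21, and 1254 and 143 CPM at day 0, a difference of -7.49 ± 0.29 on the log2 scale (SE, adjusted p = 1.62e-13). The day 0 levels of both arms, which were far apart for Col3a1, enter this difference. Pdgfra had 4.42 ± 0.528 CPM in cells of the roxadustat arm and 153 ± 2.23 CPM in those of the control arm at day 21, a difference of -5.52 ± 0.39 on the log2 scale (SE, adjusted p = 6.04e-09) that was -4.92 or -6.56 without control day 0 replicate 1 or 2. Of 22 fibroblast markers 16 differed downward and 1, Nt5e, upward. Lyz2 had 4.92 ± 0.359 CPM in cells of the roxadustat arm and 207 ± 20.2 CPM in those of the control arm at day 21, a difference of -7.41 ± 0.15 on the log2 scale (SE, adjusted p = 4.79e-24). Of 22 macrophage markers 17 differed downward and 2, H2-Ab1 and Cd14, upward. Folh1, a peptidase, Gda, guanine deaminase, Fmo2, a monooxygenase, B4galt5, a galactosyltransferase, and Fmr1, an RNA-binding protein of neurons and other cells, were the other genes with the smallest p downward, with differences of -6.36, -6.23, -3.94, -3.45 and -3.13. Of 24 interferon genes 19 differed downward and none upward. Lepr and Cd34, which rose in the roxadustat arm, fell in the control arm, with differences of 8.83 and 4.35. The summed macrophage markers were 57.8 to 62.9 CPM in the roxadustat arm and 344 to 400.0 CPM in the control arm at day 21. The summed fibroblast markers were 4843 to 6071 CPM in the roxadustat arm and 53970.4 to 56954 CPM in the control arm at day 21. At day 0 the fibroblast sums were already apart, with 2022 to 3016 CPM in the roxadustat arm and 682 to 868 CPM in the control arm. The macrophage sums at day 0 were 429 to 624 CPM and 347 to 419 CPM. These day 0 levels also enter the differences between the arms. The part of fibroblasts and macrophages in the differences of other genes was not tested.

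**Figure D3:**
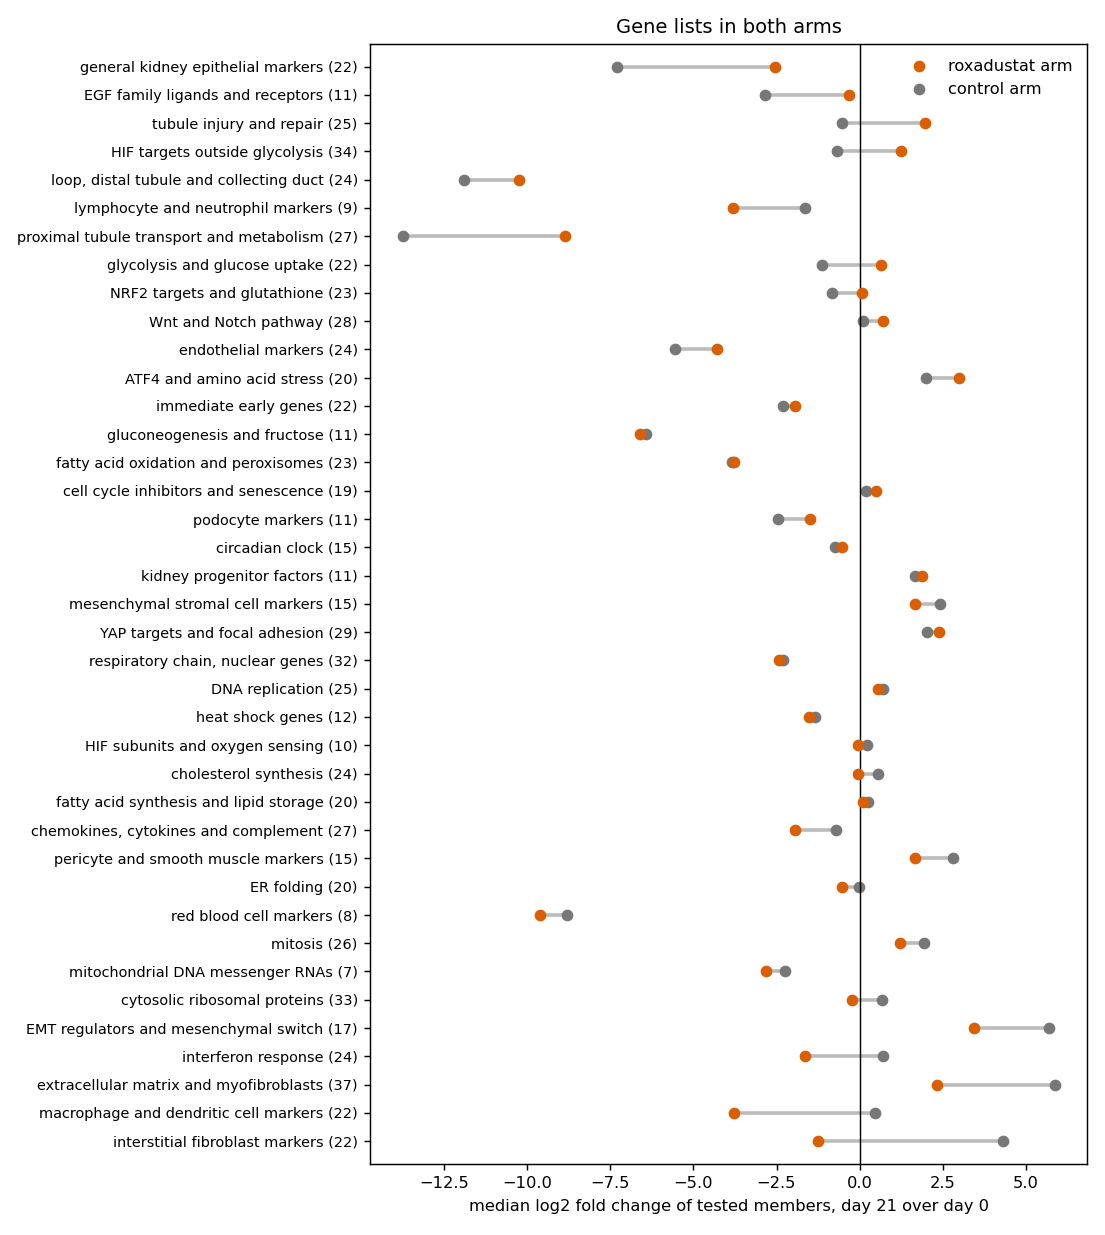
Median log2 fold change of day 21 over day 0 for each of the 39 gene lists in the roxadustat arm (orange) and in the control arm (grey), joined by a line. General epithelial, injury, HIF and glycolysis lists lie further right in the roxadustat arm, and fibroblast, matrix, macrophage and interferon lists further left.

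The day 7 libraries show how far the day 21 state had been reached, as levels with no test. In roxadustat cells Lrp2 had 9849, 170.1 and 174 CPM at days 0, 7 and 21, and Slc16a3 5.06, 483 and 335 CPM. Havcr1 had 5.72, 907 and 546 CPM and Col3a1 1254, 3988 and 869.6 CPM, so both were highest at day 7. Control cells had 10.5, 807 and 9.26 CPM of Havcr1 at days 0, 7 and 21, so the arms were close in this gene at day 7. Pax8 had 72.5, 115 and 157 CPM and Fn1 70.6, 4988 and 10422 CPM. Fos had 2194, 6.07 and 161 CPM and was lowest at day 7. The proximal tubule list summed to 473 to 523 CPM at day 7, and the general epithelial list to 991 to 1050.2 CPM, near its day 21 sum of 1062 to 1114 CPM.

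**Figure D4:**
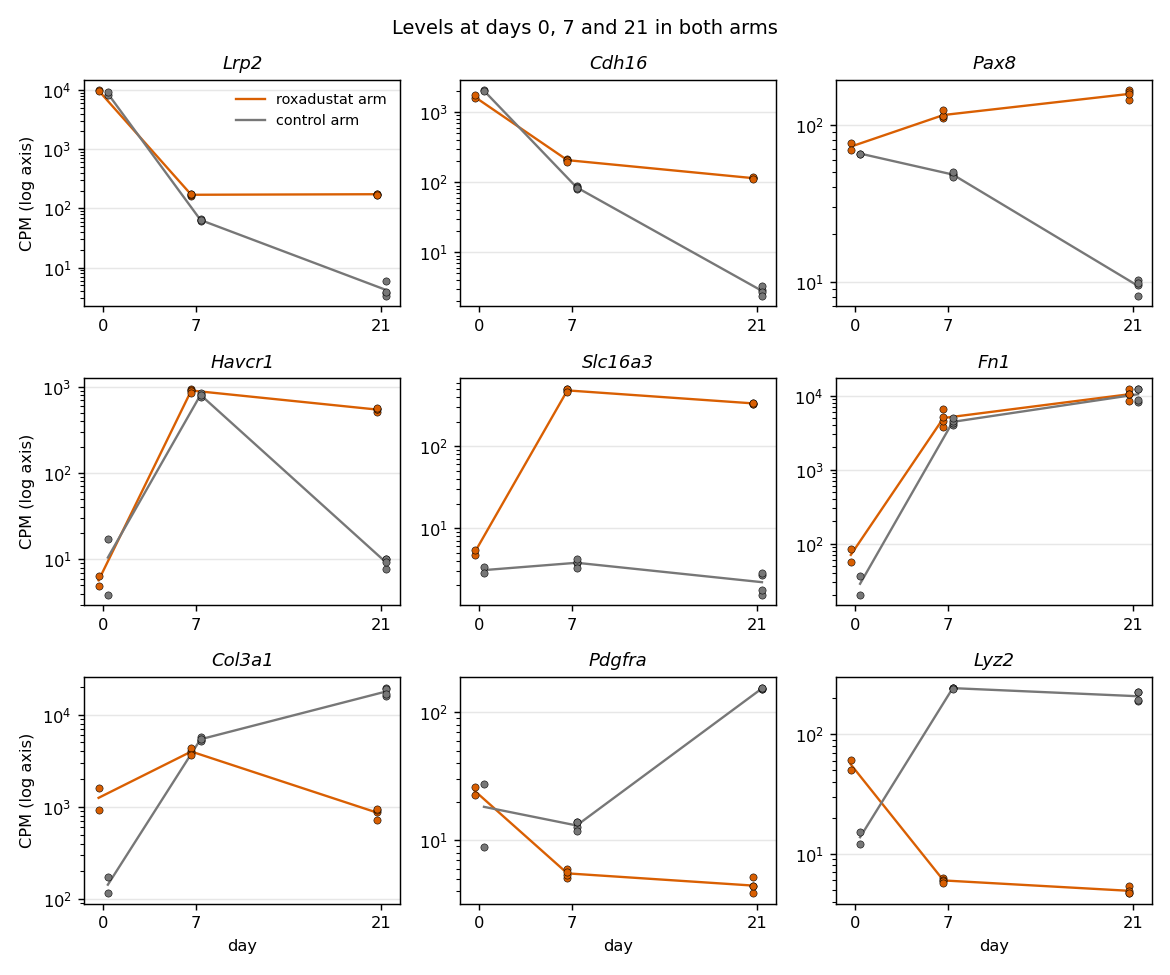
CPM on a log axis of 9 genes at days 0, 7 and 21 of the roxadustat arm (orange) and the control arm (grey), with points for libraries and lines through group means. In roxadustat cells Lrp2 stands at its day 21 level by day 7, and at day 21 the arms are apart for all genes drawn but Fn1.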

How the data were processed

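RNA of mouse kidney cells was sequenced with a non-stranded TruSeq mRNA kit, per the labels' protocols. The authors deposited raw counts of reads per Ensembl gene, made with bcl2fastq, STAR 2.5.2a and featureCounts 1.5.0-p1 on mm10, per the submitters' processing notes; the annotation release is not given in the sources used here. Non-stranded counting cannot tell a gene from one that overlaps it on the other strand. Symbols and positions are those of GENCODE M21 on GRCm38, which held 47310 of 47729 genes.

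Genes with low counts were removed with filterByExpr, and 18731 were fitted over all 20 libraries with TMM scaling and the robust quasi-likelihood test of edgeR 4.0.16 (R 4.3.3), with contrasts for day 21 against day 0 in each arm and for their difference. Adjusted p-values are edgeR's, by Benjamini-Hochberg over all genes, with a threshold of 0.05. SE is the log2 fold change over the root of F, and ± after a mean is the SD. Floors are 3 counts over a group, and intervals (95%, exact binomial) cover counting error only. An exact permutation test of 4 against 2 libraries cannot pass the threshold and was not used. No 2 libraries of a group agreed within sampling noise. Control day 21 replicates 1 and 2, and 3 and 4, came closest, with a mean chi-square per gene of 2.32 and 1.94. Across these pairs it was 16.1 to 22, so the 4 libraries may not be independent, and they enter every difference between the arms. No pairing by replicate number was seen between day 0 and day 21 of the roxadustat arm (Pearson r of -0.0012 and 0.0136). With 2 day 0 libraries this check is weak, and the control arm was not checked.

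The 39 gene lists, like the comparison, were chosen with earlier results of these data known. Named genes are the 10 largest rises and falls, the 5 each way with the highest CPM and fewer than 4 counts in the lower group, the 10 most abundant genes of each group, up to 4 members of each list by p, the 6 each way with the smallest p of the arm difference, and a fixed list. Other genes in the text were chosen after their values were seen. Some genes that the rule names are not reported here. DESeq2 1.42.0, limma 3.58.1, other scalings and filters, and fits without 1 library were tried as alternatives.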

Additional observations from a re-analysis of the deposited data

Results flagged for a closer look

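Of 238 named genes with counts at day 21, 8 had 1 of the 4 day 21 libraries apart from the others by more than the 95% critical value of Dixon's gap-to-range ratio. Chance alone gives about 1 in 20, which is more than were found. For Umod, Il1b and Ren1 the ratio was 1 because the other libraries had no counts. In replicate 2 the CPM of Hmox1 was lowest (812.9, the others at least 1147), as were those of Tpx2 (15.04, the others at least 16.5) and Mxi1 (41.74, the others at least 45.31), and Adm was highest (103.8, the others at most 97.45). Replicate 2 also held the only Umod counts (0.111 CPM) and the lowest mitochondrial share. In replicate 1 Asns was lowest (141.4 CPM, the others at least 150), and Il1b and Ren1 each had 0.06804 CPM, or 1 count, with none in the other libraries.

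The changes of 20 genes differed between the roxadustat and the control arm by the interaction test, each with an adjusted p under 0.05 in edgeR. Among all genes 44.3% passed this test. The 6 genes each way with the smallest p were chosen by the test itself, and some others after their values were seen. That these 20 genes passed is therefore no result. The differences were upward in the roxadustat arm, on the log2 scale, by 8.83 for Lepr, 7.17 for Slc6a18, 6.75 for Havcr1, 6.54 for Slc16a3, 6.10 for Myo5b, 5.83 for Car2, 5.63 for Cdh16, 5.37 for Spns2, 5.29 for Spp1, 5.13 for Pkhd1, 4.35 for Cd34 and 2.22 for Vegfa. They were downward, at -7.49 for Col3a1, -7.41 for Lyz2, -6.36 for Folh1, -6.23 for Gda, -5.52 for Pdgfra, -3.94 for Fmo2, -3.45 for B4galt5 and -3.13 for Fmr1.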

How the results depend on the processing

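The count of genes that passed at day 21 against day 0 was 14522, and stayed within 1.5 times of it under every alternative but the demand for a 2-fold change, which left 9157. Without 1 library it was 13329 to 14320. The count for the difference between the arms was 8301, with 4447 at least 2-fold and 7187 to 8273 without 1 library. The replicate block gave 14209 and 8237 and changed among named genes the calls of Cd14 (lost) and Epas1 (gained, -0.51). It is not described as a pairing, since the labels give none and no pairing by number was seen in the roxadustat arm. Scaling by library size alone turned the sign of genes that had changed little or had not passed, with log2 fold changes of 0.49 for Atf4, 0.24 for Cd14, 0.52 for Cd24a, 0.12 for Fmr1, 0.13 for Krt18, 0.50 for Ldha, 0.0697 for Ly6a, 0.0175 for Malat1, 0.13 for Mxi1, 0.14 for Myo5b, 0.47 for Pxn, 0.18 for Slc3a2 and 0.18 for Tgfbr1, and upper quartile scaling gave 0.16 for Atf4 and 0.16 for Ldha. The cause was not tested. Among the 244 named genes tested, calls were lost in 24 fits of a gene under an alternative and gained in 26, the turned signs above included, no other sign of a call turned, and the differences between arms of 20 genes kept their sign and call under all alternatives. Of these 20 genes, 6 each way had been chosen by the smallest p of this difference, so that their calls were kept is no result. Depth limits genes under the floors of 0.0475 CPM at day 21 and 0.106 CPM at day 0, and 2 day 0 libraries limit all comparisons.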
